A study of Mus musculus with 6 samples.

Results

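The troponin genes of mouse comprise 8 members, and all 8 were found among the 24525 gene rows of the deposited table. Members were chosen by symbol: Tnnt1, Tnnt2 and Tnnt3 encode troponin T, Tnni1, Tnni2 and Tnni3 encode troponin I, and Tnnc1 and Tnnc2 encode troponin C. They were measured in whole hearts of mice aged 3 to 6 months by strand-specific RNA-seq of total RNA. The 3 libraries labelled DKO (replicates 7, 8 and 9) came, per the labels, from Mbnl1-/-; Mbnl2cond/cond; Myh6-Cre+/- mice, in which Mbnl1 is constitutively null and Mbnl2 is conditional, with Cre recombinase driven by the cardiomyocyte promoter Myh6. The 3 libraries labelled WT (replicates 4, 5 and 6) are wild type, with no further allele, Cre or strain given in the labels. Non-cardiomyocytes of a DKO heart are not targeted at Mbnl2. Values are TPM, transcript abundance per length, scaled to the same total in each library. TPM keeps no read number, and the depth of the libraries is therefore unknown.

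Troponin is the calcium switch of striated muscle. In each complex on the thin filament, troponin C binds calcium, troponin I holds back the interaction of actin with myosin until it does, and troponin T fastens the complex to tropomyosin. Adult heart muscle uses Tnnt2, Tnni3 and Tnnc1. Tnnc1 also serves slow skeletal fibres, whose other subunits are Tnnt1 and Tnni1, while fast fibres use Tnnt3, Tnni2 and Tnnc2. The fetal heart expresses Tnni1, which is replaced by Tnni3 around birth. MBNL proteins regulate alternative splicing, and exons of Tnnt2 and Tnnt3 are among their known targets. The table gives 1 value per gene, so exon use within these genes is not analysed here.

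The libraries divide in several ways that touch all results. The genotype tag of replicate 7 reads WT although its title and source say DKO, and it was kept in DKO. Mbnl1 averaged 106 ± 3.16 TPM in DKO and 155 ± 8.98 TPM in WT, and Mbnl2 237 ± 9.46 TPM in DKO and 169 ± 20.1 TPM in WT (SD, n = 3 each), so the value of Mbnl2 went against the label. A value for the whole gene does not check a deleted exon, and DKO and WT stand below for libraries labelled so. Transcripts of the Y chromosome were present in DKO 9 and all 3 WT libraries and near 0 in DKO 7 and DKO 8. Xist had 152 and 174 TPM in DKO 7 and DKO 8, and at most 0.401 TPM in the other libraries. No WT library lacked Y-linked transcripts. With a term for them, as used below, the DKO difference is therefore that of DKO 9 against WT. The heart label was checked against 11 cardiomyocyte markers, of which the lowest library value was 469 TPM (Ryr2 in DKO 7). Their geometric mean was 3182, 3398 and 3430.5 TPM in DKO 7, 8 and 9, against 3628, 3542 and 3642 TPM in WT 4, 5 and 6. The scaling to these markers used below rests on that mean. Single markers moved in both directions, from Tcap (log2 difference -0.90) to Ttn (0.28). Their sums overlapped, with 66955 to 67895 TPM in DKO and 66973 to 69032 TPM in WT. In whole tissue, fewer cells of a type and less RNA per cell cannot be told apart.

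The promoters of the 4 members above 10 TPM in every library are shown because a pair of them, Tnnt1 and Tnni3, are neighbours on chromosome 7 whose levels moved in opposite directions. Sequences are the 250 bases before the RefSeq start on GRCm38.p6, written 5′ to 3′ on the gene's strand; for Tnni3 and Tnnt2 the start used in that table lies inside the span of the gene given below. Tnnt1 is chr7:4515976-4516225 (minus strand), Tnni3 chr7:4522529-4522778 (minus strand), Tnnt2 chr1:135836084-135836333 (plus strand) and Tnnc1 chr14:31208062-31208311 (plus strand). RefSeq's table holds an upstream sequence for 6 of the 8 members. Capitals mark matches on either strand to 3 motifs: the TATA box, written TATAAA; the motif of GATA factors, for which the letters searched were AGATAA; and the MCAT motif of TEAD factors, for which the letters searched were CATTCC.
Tnnt1: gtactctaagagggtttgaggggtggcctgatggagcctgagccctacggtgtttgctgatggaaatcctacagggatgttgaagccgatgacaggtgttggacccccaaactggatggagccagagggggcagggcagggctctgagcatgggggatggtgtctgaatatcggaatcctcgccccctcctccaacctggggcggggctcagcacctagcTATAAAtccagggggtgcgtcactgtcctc
Tnni3: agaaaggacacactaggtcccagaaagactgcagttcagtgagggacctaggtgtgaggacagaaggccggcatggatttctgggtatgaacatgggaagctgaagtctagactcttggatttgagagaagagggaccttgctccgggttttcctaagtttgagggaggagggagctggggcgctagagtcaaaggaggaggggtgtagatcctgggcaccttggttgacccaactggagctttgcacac
Tnnt2: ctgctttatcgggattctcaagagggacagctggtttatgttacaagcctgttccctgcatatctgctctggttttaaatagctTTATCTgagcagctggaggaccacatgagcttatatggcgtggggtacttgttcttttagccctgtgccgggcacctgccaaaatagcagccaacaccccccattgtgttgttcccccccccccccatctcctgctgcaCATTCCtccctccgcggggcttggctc
Tnnc1: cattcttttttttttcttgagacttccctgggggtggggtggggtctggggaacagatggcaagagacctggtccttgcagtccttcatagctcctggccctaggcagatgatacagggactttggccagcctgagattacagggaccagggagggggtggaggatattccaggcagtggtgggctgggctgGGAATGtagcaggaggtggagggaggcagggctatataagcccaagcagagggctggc
Tnnt1 holds a TATAAA that begins 30 bases before the start, a motif found in 12.4% of the 32851 upstream sequences of this length. Variants of the TATA box were not searched, so tatataag near the end of the Tnnc1 window stays in lower case. Tnnt2 holds an MCAT match 27 bases before its start and a GATA match 166 bases before it, and Tnnc1 an MCAT match 58 bases before its start, against 12.6% of all upstream sequences with an MCAT match and 9.99% with a GATA match. Tnni3 matched none of these letters and had 1 E-box (CANNTG), which 66.2% of all upstream sequences hold and which is left in lower case. The CArG box was found in none of the 4 windows, against 1.47% of all. No motif overlapped another among the matches shown in capitals. The matches describe letters in these windows and say nothing of the factors.

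Among the members, 1 rose, 1 fell and 3 others that could be tested did not pass. Tnnt1, slow skeletal troponin T, was 2.65 times as abundant in DKO as in WT hearts. Tnni3, the cardiac troponin I, stood at 0.708 of the WT mean. Tnnc1, the cardiac and slow troponin C, had higher values in each DKO library without passing the threshold, and Tnnt2, the cardiac troponin T, and Tnnt3, the fast troponin T, overlapped between the groups. Of the 8 members 5 had at least 1 TPM in at least 3 libraries and were tested, while Tnni1, Tnni2 and Tnnc2 were not. The test was limma's on log2(TPM + 1); its p-values were adjusted by Benjamini and Hochberg's method (BH) across 14541 genes, and calls were made at 0.05. Over all those genes 10.7% were called, 6.51% as higher and 4.22% as lower in DKO. The median log2 difference of the 5 tested members was -0.01, against 0.03 over all genes tested. Of all calls 60.6% were higher in DKO, a share that became 79.1% when libraries were scaled to the cardiomyocyte markers, which moved the median of all genes to 0.13. It was 52.5% with median-ratio scaling, 51.9% with quantile scaling, 53.0% without DKO 8 and 47.8% with a term for Y-linked transcripts.

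**Figure D1:**
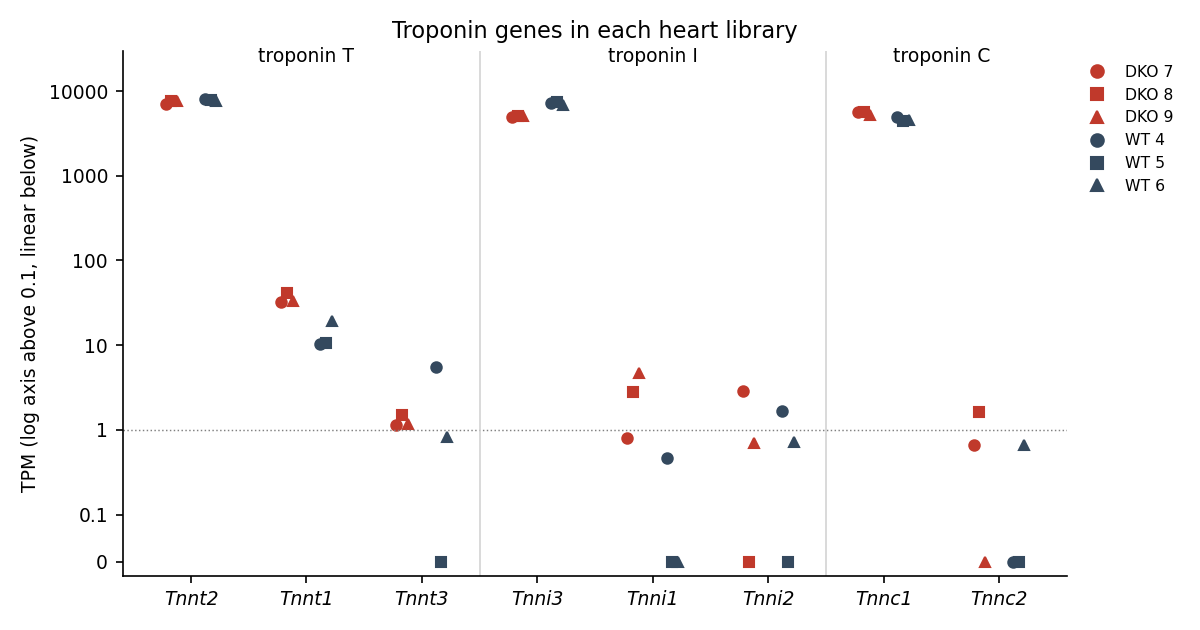
TPM of the 8 troponin genes in each library, on an axis that is logarithmic above 0.1 and linear below it; each point is a library, DKO in red to the left of WT in blue, and the dotted line is the 1 TPM minimum of the test. Tnnt2, Tnni3 and Tnnc1 lie between 4429 and 8174 TPM in all 6 libraries, Tnnt1 between 10.4 and 41.7 TPM, and the other members at or below 5.50 TPM.

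The order of levels differed between the groups in 1 place among the abundant members. In DKO hearts it was Tnnt2 (7420 ± 365 TPM), Tnnc1 (5529 ± 248 TPM), Tnni3 (5077 ± 102 TPM) and Tnnt1 (35.8 ± 5.10 TPM; SD, n = 3), and in WT hearts Tnnt2 (7850 ± 294 TPM), Tnni3 (7173 ± 254 TPM), Tnnc1 (4645 ± 300.3 TPM) and Tnnt1 (13.5 ± 5.09 TPM; SD, n = 3). Within a group the library values of these neighbours in the order did not overlap. Below Tnnt1, the library values of Tnnt3, Tnni1, Tnni2 and Tnnc2 overlapped in both groups, so no order is given among them. The first 3 are among the most abundant rows of a heart library. Tnnt2 ranked 13, 13 and 12 in DKO 7, 8 and 9, against 14, 17 and 13 in WT 4, 5 and 6. Tnni3 ranked 18 in each DKO library, against 15, 18 and 14 in the WT libraries, and Tnnc1 16, 16 and 17 in DKO, against 19, 23 and 22 in WT. The 8 members made up 1.76%, 1.85% and 1.81% of TPM in DKO 7, 8 and 9, against 2.04%, 1.96% and 1.90% in WT 4, 5 and 6.

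Among the troponin T genes, Tnnt2 (chromosome 1, 135836315 to 135852268) had 6999, 7605 and 7656 TPM in DKO 7, 8 and 9, against 8174, 7774 and 7602 TPM in WT 4, 5 and 6. The groups overlapped, with DKO 7 lowest and WT 4 highest. The log2 difference was -0.08 with a 95% interval of -0.26 to 0.09 (limma, BH adjusted p = 0.536), and its sign turned with quantile scaling, with scaling to cardiomyocyte markers and with replicate 7 counted as WT.

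Tnnt1 (chromosome 7, 4504569 to 4515975) had 32.5, 41.7 and 33.3 TPM in DKO 7, 8 and 9, against 10.4, 10.7 and 19.4 TPM in WT 4, 5 and 6. All DKO values lay above all WT values, and WT 6 stood apart from the other WT libraries. DKO exceeded WT by 1.39 on the log2 scale (SE 0.24; 95% interval 0.82 to 1.96; limma, BH adjusted p = 0.017). WT 6 was also the highest WT library for Myh7, the slow myosin heavy chain (1615, 1397 and 1396 TPM in DKO 7, 8 and 9, against 44.6, 49.3 and 235 TPM in WT 4, 5 and 6). The highest WT library differed among other slow and fetal heart genes, as given below. Leaving out DKO 8 ended the Tnnt1 call (1.28; limma, BH adjusted p = 0.0603), as did a term for Y-linked transcripts (1.29; 0.19), counting replicate 7 as WT (1.14; 0.501) and testing without a filter on low values (1.39; 0.0878).

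Tnnt3 (chromosome 7, 142498771 to 142516213) had 1.13, 1.51 and 1.18 TPM in DKO 7, 8 and 9, against 5.50, 0 and 0.813 TPM in WT 4, 5 and 6. The WT values spanned the DKO values, and WT 4 was the highest library. A log2 difference of -0.01 (SE 0.64) was far from the threshold (limma, BH adjusted p = 0.996), and its sign turned without WT 4 (0.75; adjusted p = 0.231), without DKO 7 (0.04) and without DKO 9 (0.02). The fast myosin Myh4 was listed at 0 in all DKO libraries, against 1.70 TPM in WT 4, and the fast-fibre actinin Actn3 reached at most 0.310 TPM in DKO, against 2.35 TPM in WT 4. Mybpc2, a fast myosin-binding protein, was also highest in WT 4, with 14.9 TPM against 1.07, 4.38 and 2.23 TPM in DKO 7, 8 and 9. Other fast fibre markers went both ways against WT 4. Myl1, a fast myosin light chain, was higher in DKO, with 190.8, 138.7 and 190.4 TPM in DKO 7, 8 and 9, against 81.3 TPM in WT 4. Casq1, skeletal calsequestrin, was higher too. The 14 markers of that list summed to 224 to 277 TPM in DKO, against 125 TPM in WT 4, the highest sum among the WT libraries. Most of these sums was Myl1 and Casq1 in DKO and Myl1 in WT. The part of these markers in the Tnnt3 values was not tested.

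**Figure D2:**
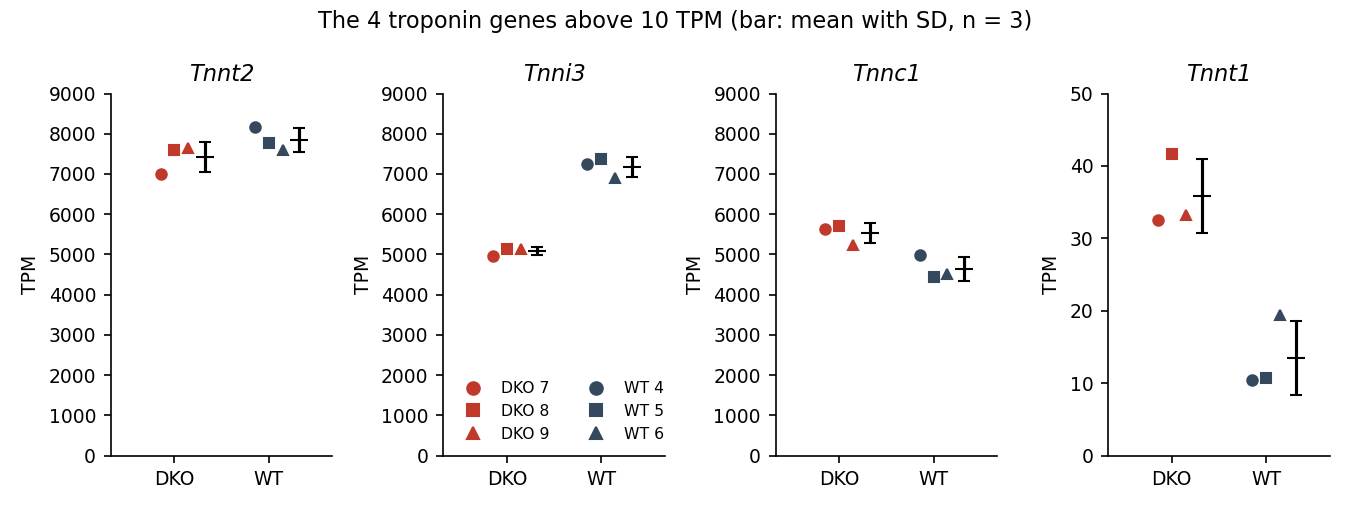
TPM of Tnnt2, Tnni3, Tnnc1 and Tnnt1 on linear axes from 0, with each library as a point and the mean with SD (n = 3) as a black bar, DKO left of WT. Tnni3 lies between 4961 and 5146 TPM in DKO, below the WT range of 6889 to 7379.95 TPM; Tnnt1 has its own axis to 50 TPM.

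Among the troponin I genes, Tnni3 (chromosome 7, 4518305 to 4522718) had 4961, 5126 and 5146 TPM in DKO 7, 8 and 9, against 7250.4, 7379.95 and 6889 TPM in WT 4, 5 and 6. The gap between the groups was wider than the range within either. On the log2 scale DKO minus WT came to -0.50 (SE 0.07; 95% interval -0.65 to -0.34; limma, BH adjusted p = 0.00777), and the call held in each of the 6 fits that left out 1 library (adjusted p from 0.0225 to 0.0307). Scaled to the cardiomyocyte markers, Tnni3 differed by -0.39 (limma, BH adjusted p = 0.02) where the median gene stood at 0.13. Quantile scaling ended the call (-0.23; limma, BH adjusted p = 0.254), as did a term for Y-linked transcripts (-0.48; 0.115), counting replicate 7 as WT (-0.35; 0.549) and testing without a filter (-0.50; 0.71).

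Tnni1, the slow skeletal and fetal cardiac form (chromosome 1, 135783033 to 135810989), had 0.794, 2.81 and 4.63 TPM in DKO 7, 8 and 9. WT 4 had 0.469 TPM, and the table lists 0 for WT 5 and WT 6. The DKO values lay above the WT values, but only DKO 8 and DKO 9 reached 1 TPM, so the gene was below the test's minimum. Without that minimum it did not pass (log2 difference 1.57, SE 0.48; limma, BH adjusted p = 0.198). Tnni2, the fast form (chromosome 7, 142441816 to 142444410), had 2.84, 0 and 0.705 TPM in DKO 7, 8 and 9, against 1.67, 0 and 0.723 TPM in WT 4, 5 and 6. Each group thus held a library listed at 0 and a library above 1 TPM.

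Among the troponin C genes, Tnnc1 (chromosome 14, 31208312 to 31211729) had 5639, 5704 and 5245 TPM in DKO 7, 8 and 9, against 4988, 4429 and 4518 TPM in WT 4, 5 and 6. The groups did not overlap, and the closest libraries were DKO 9 and WT 4. The log2 difference was 0.25 (SE 0.08; 95% interval 0.07 to 0.44), which did not pass over all genes (limma, BH adjusted p = 0.086). It passed with quantile scaling (0.54; limma, BH adjusted p = 0.0407) and with scaling to the cardiomyocyte markers (0.36; 0.0387). Tnnc2, the fast form (chromosome 2, 164777161 to 164779734), had 0.657, 1.63 and 0 TPM in DKO 7, 8 and 9, against 0, 0 and 0.668 TPM in WT 4, 5 and 6, which overlap. Of the 5 tested members 3 (Tnnt1, Tnni3 and Tnnc1) had groups that did not overlap. Over all tested genes, 33.0% had groups that did not overlap.

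**Figure D3:**
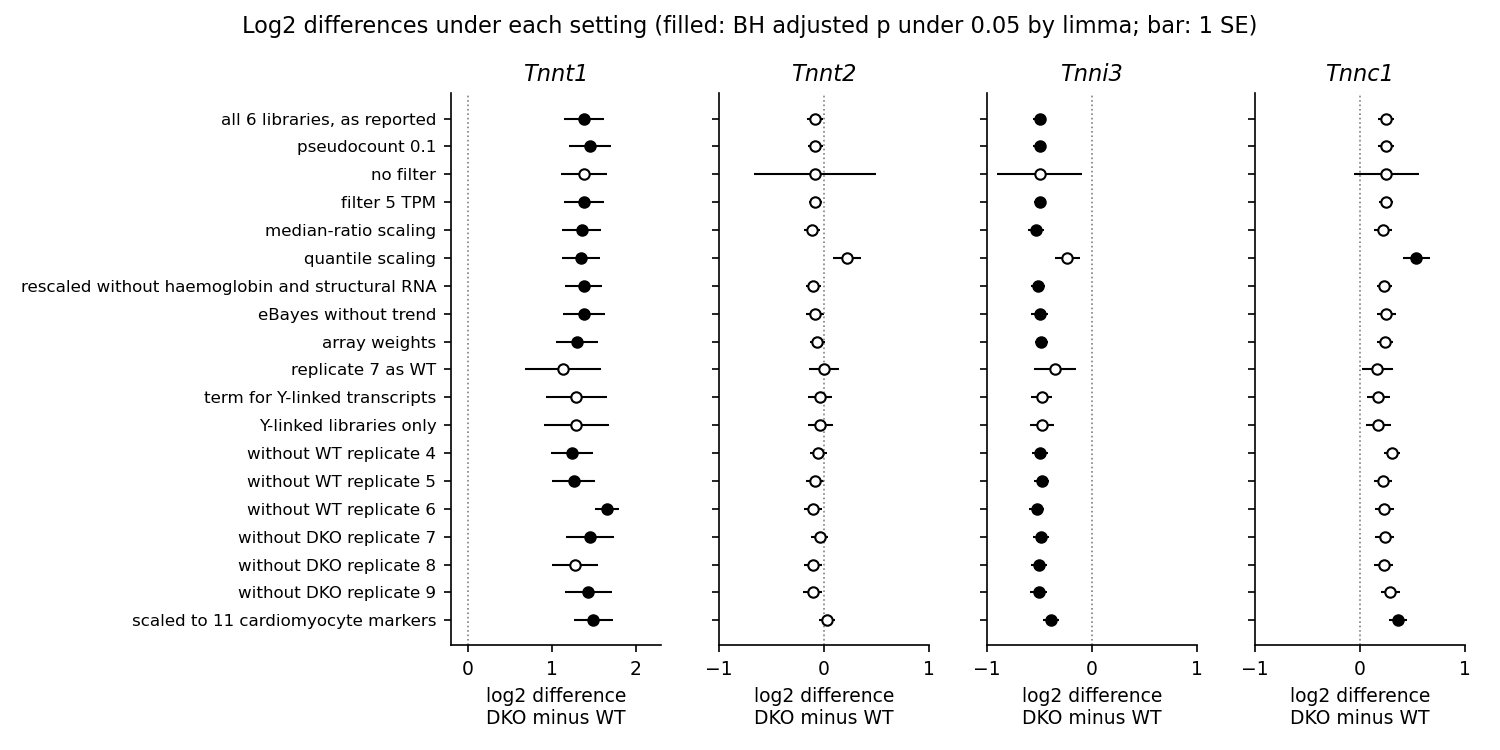
Log2 difference (DKO minus WT, limma, with 1 SE) of 4 troponin genes with all 6 libraries and under each other setting; filled circles are BH adjusted p under 0.05. Tnnt1 stays above 0 and Tnni3 below 0 in every setting shown, filled in 14 of 19 for each, while Tnnt2 crosses 0 and Tnnc1 is filled in 2 settings.

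Shares within each troponin group do not depend on scaling by 1 factor per library and were compared for all 8 members; they were not computed after quantile scaling, which can change them. The cardiac gene made up over 99% of each group in every library. Tnnt1 took 0.462%, 0.545% and 0.432% of troponin T transcripts in DKO 7, 8 and 9, against 0.127%, 0.137% and 0.254% in WT 4, 5 and 6. The means were 0.480% ± 0.0583 in DKO and 0.173% ± 0.0706 in WT (SD, n = 3 each), and the groups did not overlap. Tnnt2 made up 99.5% ± 0.0607 in DKO and 99.8% ± 0.0638 in WT (SD, n = 3 each), and Tnnt3 took 0.0161%, 0.0197% and 0.0153% in DKO 7, 8 and 9, against 0.0672%, 0 and 0.0107% in WT 4, 5 and 6. Tnni1 took 0.0160%, 0.0547% and 0.0899% of troponin I transcripts in DKO 7, 8 and 9, against 0.00647%, 0 and 0 in WT 4, 5 and 6. Tnni3 made up 99.927%, 99.945% and 99.896% in DKO 7, 8 and 9, against 99.970%, 100% and 99.990% in WT 4, 5 and 6, so that its lower level was not matched by a gain of another troponin I gene of like size. The shares of Tnnt1, Tnnt2, Tnni1 and Tnni3 each gave p = 0.1 in an exact two-sided permutation test, the smallest value that 3 against 3 libraries allow, and 0.2 after BH adjustment over the 8 shares. The shares of Tnnt3 (exact permutation p = 1), Tnni2, Tnnc1 and Tnnc2 (0.7 each) overlapped between the groups. The 5 skeletal members together had 37.9, 47.6 and 39.8 TPM in DKO 7, 8 and 9, against 18.1, 10.7 and 21.6 TPM in WT 4, 5 and 6. The fast members among them summed to 4.63, 3.14 and 1.88 TPM in DKO and 7.18, 0 and 2.20 TPM in WT, which overlap.

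**Figure D4:**
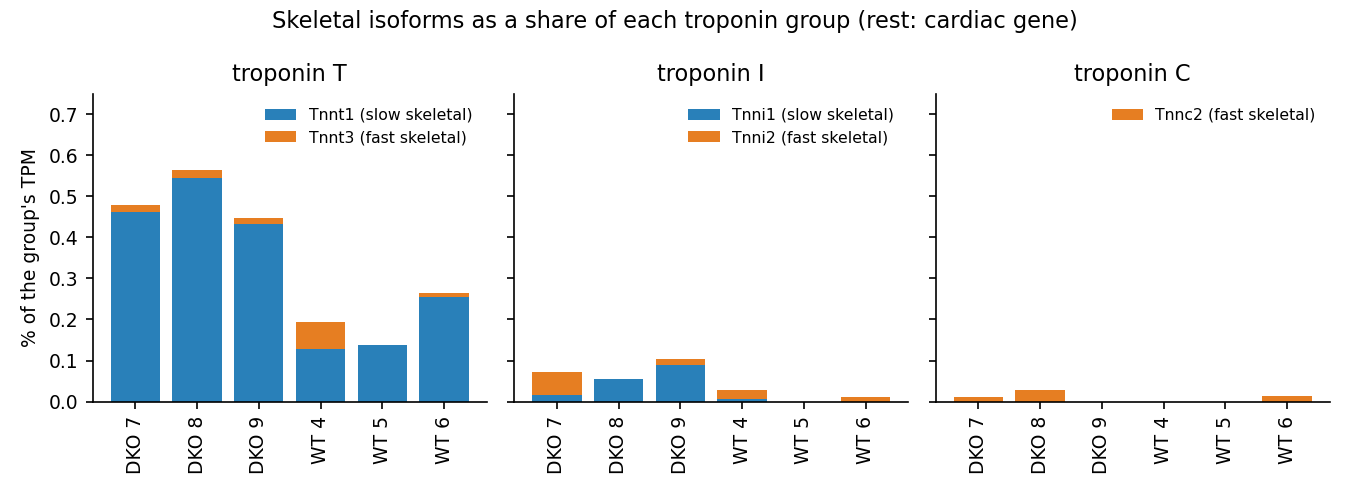
Skeletal members as a percent of the TPM of their troponin group, with a stacked bar per library, DKO left of WT; slow members are blue and fast members orange, and the cardiac gene makes up the rest to 100. Tnnt1 is the main skeletal form in all 6 libraries, with 0.432% to 0.545% of troponin T in DKO and 0.127% to 0.254% in WT.

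The balance between the subunits was compared within libraries, where 1 factor per library cancels too. Tnni3 over Tnnc1 was 0.880, 0.899 and 0.981 in DKO 7, 8 and 9, against 1.45, 1.67 and 1.52 in WT 4, 5 and 6. Every DKO library thus had more Tnnc1 than Tnni3 transcripts, and every WT library the reverse. Tnni3 over Tnnt2 was 0.709, 0.674 and 0.672 in DKO, against 0.887, 0.949 and 0.906 in WT. Tnnt2 over Tnnc1 was 1.24, 1.33 and 1.46 in DKO, against 1.64, 1.76 and 1.68 in WT. On the log2 scale, the total of troponin I over that of troponin C differed by -0.75 and that of troponin T over troponin C by -0.33, while troponin T over troponin I differed by 0.42. These totals and the Tnnt1 over Tnnt2 ratio (a log2 difference of 1.54) are the 4 ratios that all 6 libraries give, and each gave p = 0.1, again the floor of the exact permutation test (two-sided) (0.1 after BH adjustment over the 4). The ratios of totals are not independent, since troponin T over troponin I follows from the other ratios of totals. Transcript ratios are not protein ratios.

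**Figure D5:**
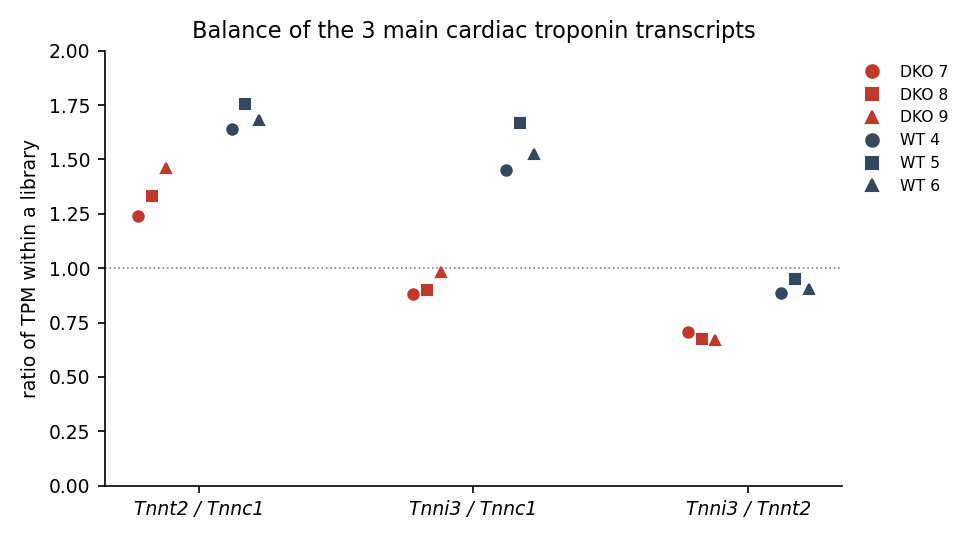
Ratio of TPM between the main cardiac troponin T, I and C genes within each library, DKO left of WT, on a linear axis from 0; the dotted line marks equal TPM. The Tnni3 over Tnnc1 ratio lies between 0.880 and 0.981 in DKO and between 1.45 and 1.67 in WT.

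Troponin T and I genes lie in pairs in the genome. Tnnt1 and Tnni3 are on the minus strand of chromosome 7, 2329 bases apart with no other RefSeq gene between them. Tnni3 over Tnnt1 was 153, 123 and 155 in DKO 7, 8 and 9, against 696, 689.6 and 355 in WT 4, 5 and 6. The cardiac gene thus exceeded its slow neighbour in every library, by less in DKO. Tnnt2 and Tnni1 are on the plus strand of chromosome 1, 25325 bases apart with 1 gene between them, and of this pair Tnnt2 overlapped between groups while Tnni1 did not. Tnnt3 and Tnni2 are on the plus strand of chromosome 7, 54360 bases apart with 1 gene between them, and both overlapped between groups. Members shared few sequences of 31 bases: 2 were common to Tnnt2 and Tnni1 transcripts of GENCODE M21, and none to any other pair. Of 2306 such words in Tnnt1 transcripts 28 occurred in another gene, and of 2137 in Tnni3 transcripts 56, in its upstream neighbour Dnaaf3. The share was highest for Tnnc1, with 60 of 1037 words (5.79%) in other genes, against 1.21% for Tnnt1 and 2.62% for Tnni3.

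Other genes of the thin filament and its partners, among them myosin-binding proteins of the thick filament, moved in both directions around the troponins. Of 15 tested partners 1 was higher and 4 were lower in DKO, with a median log2 difference of -0.02. Among all genes tested, 6.51% were called higher and 4.22% lower. Nebl, a thin filament protein of the cardiac Z-disc, had 247, 273 and 288 TPM in DKO 7, 8 and 9, against 155, 170.2 and 140.2 TPM in WT 4, 5 and 6, a log2 difference of 0.79 (limma, BH adjusted p = 0.00622). Leiomodin Lmod2, which promotes thin filament elongation, was 585 ± 28.2 TPM in DKO and 820 ± 31.2 TPM in WT (SD, n = 3 each), a log2 difference of -0.49 (limma, BH adjusted p = 0.00772), close in size to that of Tnni3. Lmod3 (-0.74; limma, BH adjusted p = 0.00785), skeletal actin Acta1 (-1.97; 0.0102) and the fast myosin-binding protein Mybpc2 (-1.97; 0.0219) were also lower. The main cardiac actin Actc1 (0.21; limma, BH adjusted p = 0.177) and tropomyosin Tpm1 (0.11; 0.476) did not pass.

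Enzymes that add or remove phosphate on cardiac troponin I, counted with regulatory subunits of protein kinase A, gave 3 higher and 0 lower of 16 tested. Over all genes tested 6.51% were called higher and 4.22% lower. The median log2 difference of the list was 0.25, against 0.03 over all genes tested. Phosphatase subunit Ppp1ca averaged 340.2 ± 7.99 TPM in DKO and 257.5 ± 8.70 TPM in WT (SD, n = 3 each; log2 difference 0.40; limma, BH adjusted p = 0.00922). The kinases Pak1 (0.97; limma, BH adjusted p = 0.0269) and Prkcd (0.70; 0.0435) were also higher, and protein kinase A subunit Prkaca was 0.22 (0.0501). Pak1 averaged 3.43 TPM in DKO and 1.27 TPM in WT, near the 1 TPM minimum of the test. Tnni3k, a cardiac kinase named for its interaction with troponin I, was 81.0, 98.1 and 99.9 TPM in DKO 7, 8 and 9, against 120.3, 115 and 116 TPM in WT 4, 5 and 6, a difference that was not called (-0.34; limma, BH adjusted p = 0.0664). Transcription factors known to act on troponin genes gave 0 calls of 15 (limma; 1 had an unadjusted p under 0.05), with thyroid hormone receptor Thra at 0.23 (limma, BH adjusted p = 0.152) and Gata4 at 0.18 (0.214). Of 7 tested splicing factors that act on troponin T exons, 1 was higher, Mbnl2, and 2 were lower, Mbnl1 and Rbfox1 (18.9 ± 1.34 TPM in DKO and 36.5 ± 1.82 TPM in WT; SD, n = 3 each; log2 difference -0.92; limma, BH adjusted p = 0.00412).

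Genes of slow fibres and the fetal heart moved in both directions. Of 9 tested, 3 were higher (Myh7, Casq1 and Myoz2) and 1 was lower (Acta1), with a median of 0.64. The shares among all genes tested were 6.51% higher and 4.22% lower. Casq1, skeletal calsequestrin, had 50.3, 59.1 and 64.7 TPM in DKO 7, 8 and 9, against 6.36, 6.09 and 15.7 TPM in WT 4, 5 and 6. Its highest WT library was again WT 6. Among the WT libraries, Myh7b was also highest in WT 6, while Myoz2, Acta1, Nppa, Nppb, Myl4 and Myl7 were highest in WT 4. Of 14 fast fibre markers 8 could be tested, with 2 higher (Myl1 and Casq1), 1 lower (Mybpc2) and a median of 0.79. Casq1 is on both lists, so its change is counted in each. Most of their summed TPM was Myl1 and Casq1 in DKO and Myl1 in WT, where the lowest sum was 78.8 TPM. The fast myosins Myh1 and Myh2 and the skeletal release channel Ryr1 were under 1 TPM in all 6 libraries. Of the 5 genes of the myogenic lineage, Myog, Myf5 and Pax7 were listed at 0 in all libraries, and the 5 summed to at most 0.694 TPM in DKO and to 0 in WT.

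Markers of other heart compartments also differed between the groups, and their part in the Tnnt1 and Tnni3 results was not tested. The counts below stand beside 6.51% of all genes tested called higher and 4.22% called lower. Conduction system markers gave 3 higher and 0 lower of 8 tested (sum 102 to 131 TPM in DKO and 61.2 to 73.4 TPM in WT; median log2 difference 0.60), with Isl1 under 1 TPM in all libraries. Atrial markers gave 0 higher and 1 lower of 6 (2466 to 4179 TPM in DKO and 396 to 6662 TPM in WT; median -0.66), with the highest sum in WT 4. Fibroblast markers gave 3 higher of 5 (945 to 1090 TPM in DKO and 743 to 758 TPM in WT; median 0.79). Smooth muscle markers gave 1 higher (Acta2) and 1 lower (Tagln) of 5, with a median of -0.63. Their sum was 213 to 341 TPM in DKO and 125 to 182 TPM in WT, but Acta2 alone made up 163 to 289 TPM of it in DKO and 54.2 to 75.8 TPM in WT, and the means of the other 4 were lower in DKO. Red cell markers gave 0 calls of 5 (limma; 5 had an unadjusted p under 0.05), with 1781 to 6763 TPM in DKO and 6042 to 38458 TPM in WT (median -1.88). Cardiomyocyte markers gave 1 higher and 2 lower of 11, with a median of -0.01.

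Within the 3 DKO libraries, DKO 9 alone shared Y-linked transcripts with the WT libraries. Its Tnnt1 (33.3 TPM) and Tnni3 (5146 TPM) lay on the DKO side of all WT values, as did its Tnnc1 (5245 TPM) and Tnni1 (4.63 TPM). DKO 9 against the 3 WT libraries gave log2 differences of 1.29 for Tnnt1 (limma, BH adjusted p = 0.268) and -0.48 for Tnni3 (0.198), with the lone DKO library assumed to vary like the WT ones. Only 12 genes of the whole table passed in that fit.

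The genes whose profile over the 6 libraries was most like that of a member were sought among genes of at least 10 TPM on average, as a description over libraries that share their genotype split. For Tnni3 they were Taf1a (Pearson r = 0.999), Snap23 (0.998) and the muscle ribosomal paralog Rpl3l (0.998). For Tnnt1 they were the elastic fibre protein Mfap4 (r = 0.995), Arhgap44 (0.995) and Rpl13a (0.993), and for Tnnc1 Oasl2 (0.996), Tubb4b (0.993) and Scgb1c1 (0.989). For Tnnt2 they were Rem1 (r = 0.987), Ivns1abp (0.982) and Nceh1 (0.981), and for Tnnt3 Srebf2 (0.985), Pam (0.984) and Zmynd19 (0.983). These are the highest of at least 8692 correlations per member, each over 6 libraries. Of the members only Tnnt1, Tnnt2, Tnni3 and Tnnc1 had at least 10 TPM on average, and none of them was among these genes. The other members could not be found by this search.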

How the data were processed

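The authors deposited 1 table of TPM values, with 1 column per library and 1 value per gene. The submitters' processing notes name bcl2fastq, kallisto 0.44.0 and the build mm10. The annotation, and how transcripts were summed per gene, are not given in these sources. Because TPM scales each library to 1 total, a few abundant RNAs can move all other values. Without read numbers no counting interval can be given. Nothing in the labels says that libraries of a group come from separate animals, and p-values then measure only the spread between these libraries.

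For genes reaching 1 TPM in 3 or more libraries, limma 3.58.1 (R 4.3.3; eBayes, trend on) was fitted to log2(TPM + 1), a scale that understates the change of low genes, with BH adjustment over all genes. The fit was tested on simulated data. Shares and ratios were tested with exact two-sided permutation over libraries. Named genes are the 8 members, the 4 smallest p of each list (given in part) and the 3 genes most like each tested member. The last leave out predicted genes, short RNA and pseudogenes. Myh4, Actn3, Actc1, Tpm1, Tnni3k, Myh7b, Nppb and Myl7 were chosen after their values were seen, as were the list genes named as at 0 or under 1 TPM. Members, the 13 gene lists and tests were chosen with earlier results of these data known. Positions are RefSeq's on GRCm38 and transcripts GENCODE M21, both of the mm10 assembly. Alternatives were 17 planned settings and 1 chosen after seeing the data, scaling to the cardiomyocyte markers. Plots used matplotlib 3.10.9 (python 3.11.15).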

Additional observations from a re-analysis of the deposited data

How the results depend on the processing

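No paired analysis was possible because the groups share no replicate number. The count of genes called, 1560 with all 6 libraries, was 647 without a filter, 1 with replicate 7 as WT, 92 with a term for Y-linked transcripts, 12 when DKO 9 alone was set against WT, and 628 to 876 with 1 library left out. The settings without a filter, with replicate 7 as WT and with the Y-linked term kept all 6 libraries. With that term the DKO difference is still that of DKO 9 against WT, because DKO 7 and DKO 8 alone lack Y-linked transcripts. The causes of these lower counts were not tested. Without a filter, Tnnt1 (1.39) and Tnni3 (-0.50) kept their size and lost their calls. With replicate 7 as WT they were 1.14 and -0.35, and with the Y-linked term 1.29 and -0.48, none of them called. DKO 9 alone against WT gave the same 1.29 and -0.48, so it and the Y-linked term are not separate checks of size. Tnni3 also lost its call with quantile scaling (-0.23), a setting in which Tnnc1 gained one (0.54), as it did with scaling to cardiomyocyte markers (0.36). With 1 library left out, Tnnt1 ranged from 1.24 to 1.66 and lost its call without DKO 8 alone (1.28), Tnni3 from -0.53 to -0.48, Tnnc1 from 0.22 to 0.30 and Tnnt2 from -0.10 to -0.04. The sign of Tnnt2 turned with quantile scaling (0.22), with replicate 7 as WT (0.00095) and with the cardiomyocyte scaling (0.030). That of Tnnt3 turned with a pseudocount of 0.1 (0.77), rescaling without haemoglobin and structural RNA (0.011), replicate 7 as WT (0.062), the cardiomyocyte scaling (0.054) and with 1 library left out (-0.60 to 0.75).

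Of the shares, in percentage points, that of Tnni2 turned with replicate 7 as WT (-0.0158) and ranged from -0.00434 to 0.0243 with 1 library left out, that of Tnnt3 ranged from -0.0219 to 0.0117, and those of Tnnc1 (0.00492) and Tnnc2 (-0.00492) turned with DKO 9 alone against WT. The other shares and the 4 ratios kept their direction in the 9 settings tried, none of which can reach p under 0.05. The members under 1 TPM in most libraries (Tnni1, Tnni2 and Tnnc2) are limited by a depth that the table does not give.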
